A study of Mus musculus with 2 samples.

Results

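A set of 9 genes around the glucose-responsive protein TXNIP were examined in mouse pancreatic islets of control mice and of mice labelled as lacking the transcription factor ZBTB20 in beta cells. They were Txnip, the arrestin-domain genes Arrdc3 and Arrdc4, the transcription factor genes Mlxipl (ChREBP), Mlxip (MondoA) and Mlx, the pyruvate kinase gene Pklr, and the thioredoxin genes Txn1 and Txn2. Every probe set assigned to exactly 1 of these genes was taken, which gave 17 probe sets for 9 genes out of 34945 such probe sets for 18193 genes. The genes were selected on pathway and on measured values, since the high Txnip ratio of these same arrays was known when they were chosen. The values below are therefore a description, and none was tested.

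The study compared 1 array of islets from control mice, labelled wildtype, with 1 array of islets from littermates labelled as a b cell-specific ZBTB20 knockout. Both groups were 2-3 months old and of mixed background. The islets were picked by hand after collagenase digestion and kept in culture overnight before freezing, and the sources used here do not give the glucose concentration of that culture. Nor do they give the driver of the deletion, the deleted part of the gene, or the number of mice behind an array. With 1 array per group there is no replicate error, so each ratio compares a pair of RNA preparations and carries no p-value.

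The values are MAS5 signals, in which the probes of a probe set are summarised into 1 intensity in arbitrary units. Signals under the array median, 21.6 in control and 21.7 in knockout-labelled islets, were raised to that floor before a ratio was taken. Hormone transcripts of the islet were bright on both arrays, with Ins2 at 9194 and 7786 and Sst at 9661 and 9770. The 9 probe sets of Zbtb20 gave log2 ratios from -0.87 to 0.54, 5 of them below 0, and so did not settle the genotype label. The array with the knockout label is called knockout-labelled for this reason, and every ratio is knockout-labelled over control.

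TXNIP is an alpha-arrestin that binds and inhibits thioredoxin and promotes the removal of glucose transporters from the cell surface. Its transcription in beta cells is driven by glucose: ChREBP or its relative MondoA pairs with MLX and binds carbohydrate response elements, which hold a pair of E-box-like motifs set 5 bases apart. Arrdc4 is a relative of Txnip known to be under the same control, and Pklr is a classical target of ChREBP in liver.

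The upstream sequences of Txnip, Arrdc4 and Pklr are shown because Txnip and Arrdc4 were the members with the large ratios and Pklr is the reference target of the same factors. They are the 250 bases before a transcript start in RefSeq, build GRCm38.p6, written 5′ to 3′ on the strand of the gene. Capitals mark the E-box CACGTG or a pair of E-box-like motifs. The Txnip window is chr3:96557707-96557956 on the + strand, that of Arrdc4 is chr7:68749239-68749488 on the - strand, and that of Pklr is chr3:89136373-89136622 on the + strand, before the more downstream of its 2 starts.
Txnip: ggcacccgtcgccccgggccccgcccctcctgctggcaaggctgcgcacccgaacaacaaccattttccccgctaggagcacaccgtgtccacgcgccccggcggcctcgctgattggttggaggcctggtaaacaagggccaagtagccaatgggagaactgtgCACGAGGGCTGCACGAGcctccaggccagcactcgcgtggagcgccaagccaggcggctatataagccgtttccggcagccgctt
Arrdc4: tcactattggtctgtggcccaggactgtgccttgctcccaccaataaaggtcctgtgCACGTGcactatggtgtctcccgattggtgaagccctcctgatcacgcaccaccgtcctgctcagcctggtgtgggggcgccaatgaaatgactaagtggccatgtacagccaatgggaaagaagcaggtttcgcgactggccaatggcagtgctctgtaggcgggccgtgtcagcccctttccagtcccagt
Pklr: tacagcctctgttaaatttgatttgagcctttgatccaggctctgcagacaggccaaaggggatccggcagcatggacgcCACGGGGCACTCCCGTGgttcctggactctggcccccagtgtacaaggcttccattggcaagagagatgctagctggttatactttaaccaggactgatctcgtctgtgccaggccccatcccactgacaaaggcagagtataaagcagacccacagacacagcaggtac

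Both strands of each window were searched for CACGTG, for the pairs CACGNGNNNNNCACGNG, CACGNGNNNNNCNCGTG and CNCGTGNNNNNCACGNG, which can overlap each other and CACGTG, and for CCAAT, the core of the NF-Y binding motif. Txnip held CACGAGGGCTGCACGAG from 85 to 69 bases before its start, and Pklr held CACGGGGCACTCCCGTG from 170 to 154 bases before its downstream start. A pair of this kind was present before 23 of 27025 genes (0.0851%). Arrdc4 held no pair in its window, but a single CACGTG from 193 to 188 bases before its start, and 6 CCAAT matches. A single CACGTG also lay upstream of Mlx, from 40 to 35 bases before its start, and of 1 of 2 starts of Mlxipl. It was found in 6.02% of all 32851 windows, and CCAAT in 33.8%. These matches are descriptions of letters and not measured binding.

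**Figure D1:**
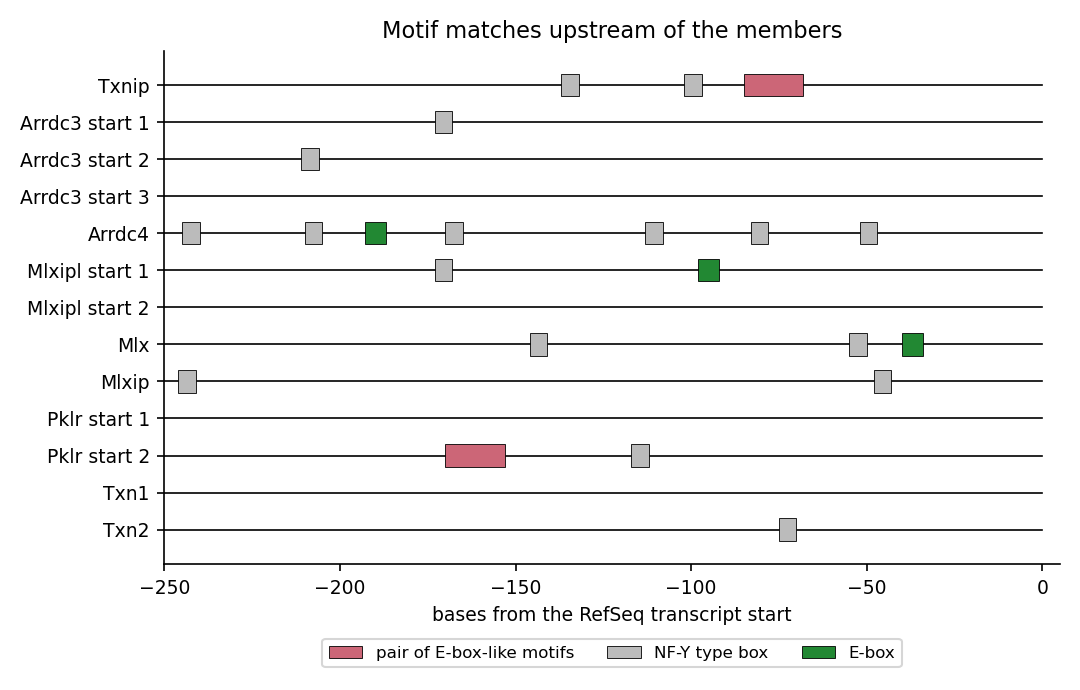
Positions of motif matches in the 250 bases before each RefSeq start of the members, in bases from the start on the horizontal axis, with a row for each of 13 starts. Txnip and the second Pklr start are the rows with a pair of E-box-like motifs, and Arrdc4 has 1 E-box among 6 NF-Y type boxes.

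Txnip was the member with the highest ratio, in both of its probe sets. Probe set 1415996_at read 622 in control islets and 2424 in knockout-labelled islets, 3.90-fold higher. Probe set 1415997_at gave 274.5 and 937, 3.41-fold higher. The log2 ratios were 1.96 and 1.77, with an SD of 0.14 between the probe sets, which share the RNA and the array. Txnip ranked 35th from the top among 11802 measured genes. Among 594 other genes whose mean log2 signal lay within 0.5 of that of Txnip, 1 had a ratio as high, and this was Fbp1, a gluconeogenesis gene named after its value was seen. The central 95% of that group ran from -0.68 to 0.39.

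Arrdc4, which encodes an alpha-arrestin that like TXNIP restrains glucose uptake, was the other member past 2-fold. Its probe set 1424759_at read 92.1 in control and 209 in knockout-labelled islets, and 1426818_at read 91.2 and 209.7. Both gave nearly the same ratio, 2.27-fold and 2.30-fold higher, with log2 ratios of 1.18 and 1.20. Arrdc4 ranked 143rd from the top, and 31 of 2338 other genes of similar signal had a ratio as high.

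Arrdc3, an alpha-arrestin that brings ubiquitin ligases to the beta2-adrenergic receptor, did not share this direction. Its single probe set, 1454617_at, went from 381 to 319, a log2 ratio of -0.26 against a central 95% of -0.59 to 0.72 for genes of similar signal.

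The genes for the glucose-responsive transcription factors themselves had similar signals on both arrays. Mlxipl, which encodes ChREBP, read 97 and 93, a log2 ratio of -0.061. Its only probe set here does not separate transcripts from its different promoters. Mlxip, which encodes MondoA, read 266 and 229, a log2 ratio of -0.22. Mlx, the shared partner of both, read 466 and 450.2 in 1425930_a_at and 302 and 263 in 1418437_a_at, with log2 ratios of -0.050 and -0.20. All 4 probe sets of the factor genes were thus slightly lower, by less than the central 95% of genes of similar signal for the brightest probe set of each gene.

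Pklr, which encodes the liver and red cell pyruvate kinase, was close to or under the floor throughout. The brightest of its probe sets, 1438711_at, read 34.8 in control and 28.1 in knockout-labelled islets, a log2 ratio of -0.31. The other ones read 19.1 and 14.3 for 1421258_a_at and 3.1 and 4.9 for 1421259_at, under the floor on both arrays, so no ratio is given for them. A signal this low limits what can be said. No direction is therefore read from Pklr to set beside Txnip, though both had a paired E-box-like motif upstream.

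Txn1, the cytosolic thioredoxin that TXNIP binds, read 3143 and 3460 in 1416119_at, a log2 ratio of 0.14. Its weak probe set 1456734_at read 34.3 and 35.9. Txn2, the mitochondrial thioredoxin, had 3 probe sets, all slightly lower in knockout-labelled islets. They read 414 and 339 in 1421557_x_at, which can take up related sequences, 340 and 333 in 1455640_a_at, and 293 and 228 in 1452782_a_at. Their log2 ratios were -0.29, -0.029 and -0.36. The inhibitor gene Txnip was thus 3.90-fold higher on an array where the thioredoxin genes stayed within 1.28-fold.

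**Figure D2:**
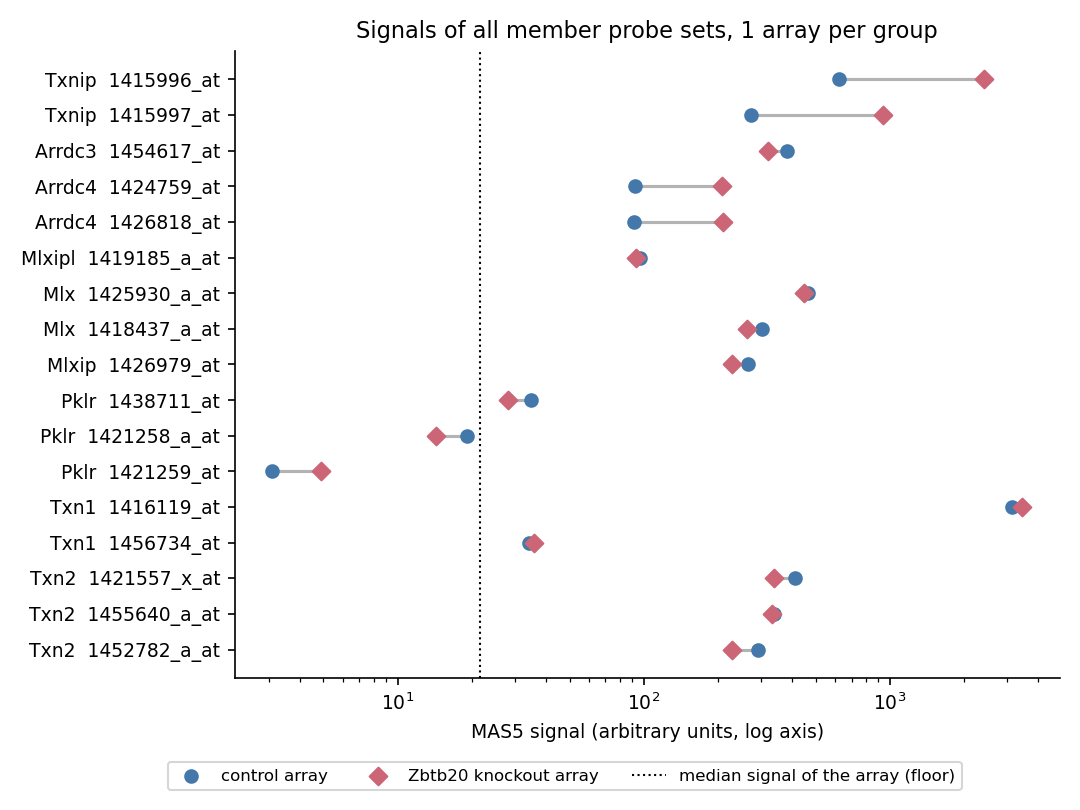
MAS5 signals (log axis, arbitrary units) of the 17 member probe sets, with a circle for the control array, a diamond for the knockout-labelled array and a dotted line at the floor of 21.6. Both Txnip and both Arrdc4 probe sets are well apart, and the pairs of symbols of the other genes lie close together, except for weak Pklr probe sets under the floor.

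Counted by brightest probe set, 2 of 9 genes were higher by 2-fold or more and 0 were lower by as much, with 3 log2 ratios above 0 and 6 below. Over all measured genes, 1.82% were higher and 1.44% were lower by this limit. By probe set, 4 of the 15 above the floor were at least 2-fold higher, beside 1.88% higher and 1.29% lower of all 21257 measured 1-gene probe sets. Since the members were chosen with these ratios known, nothing is read from the difference. Of 4719 genes with several probe sets above the floor on both arrays, 26 (0.551%) had all of them at least 2-fold higher, and Txnip and Arrdc4 were among these 26. The other 7 members ranged from -0.31 to 0.14 on the log2 scale.

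**Figure D3:**
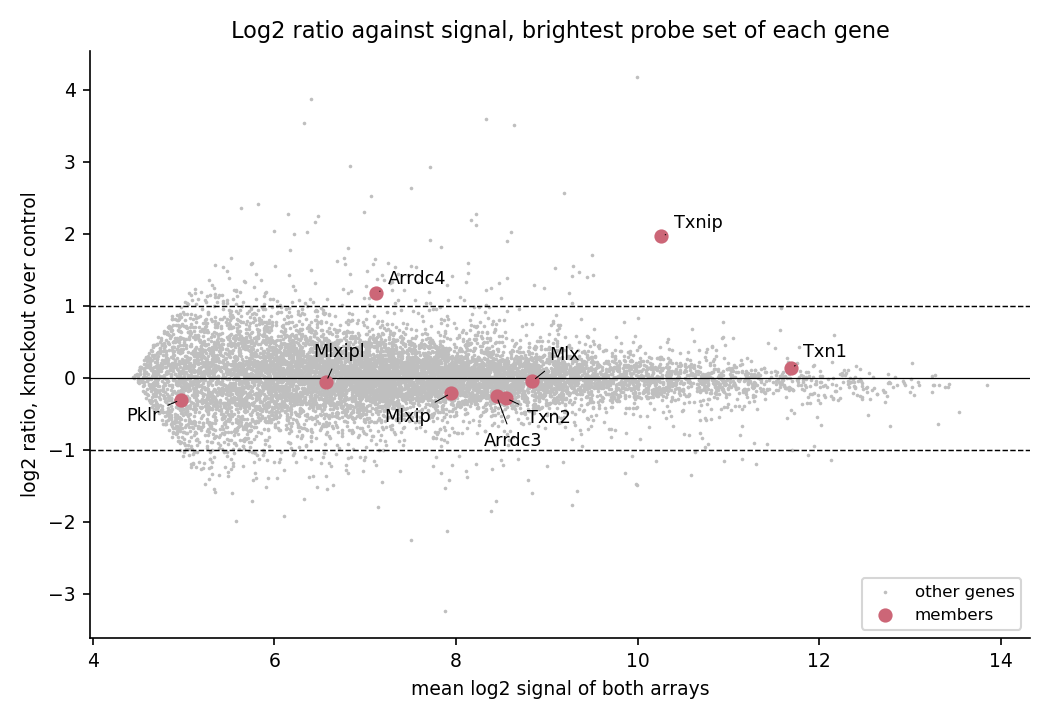
Log2 ratio of knockout-labelled over control against mean log2 signal for the brightest probe set of each of 10450 genes above the floor on both arrays, with dashed lines at 2-fold. Txnip (1.96) stands above all but 1 of the genes of similar signal and Arrdc4 (1.18) just above the upper line, while the other 7 members lie within the cloud.

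The 5 genes nearest to Txnip over the 2 log2 signals, above the floor on both arrays, were Nr4a1, Ece1, H2ac19, Cldn7 and Gabarapl1. The nearest of these, Nr4a1, an immediate early nuclear receptor gene, read 769.6 and 1365.5 and lay 0.88 log2 units away. It was 1.77-fold higher, and the other 4 were between 1.41-fold and 1.71-fold higher. These genes were picked by nearness to Txnip on both arrays, so their direction follows from the choice. No other gene above the floor on both arrays lay nearer to Txnip.

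Genes that share the regulators or the function of Txnip were then read from 7 lists, 88 measured genes in all. Of these, 1 was higher and 1 was lower by 2-fold or more (1.14% each). Both belong to the list of glucose entry genes given last, and neither held under every alternative. Over all measured genes, 1.82% were higher and 1.44% lower by this limit. Counts of 0 or 1 in these lists are near those shares, and nothing is read from them. Among 17 measured ChREBP or MondoA target genes other than the members, 0 passed 2-fold, 8 were above 0 and 9 below, and the median log2 ratio was -0.064, beside 0 over all genes. The lipid synthesis gene Acaca (64.8 and 110.4) and the signalling regulator gene Rgs16 (112 and 183.5) were at 0.77 and 0.71. Gpd1, a glycerol phosphate enzyme gene, and the fatty acid elongase gene Elovl6 were at 0.63 and 0.61. Other probe sets of Acaca and Elovl6 gave 0.13 and -0.091, those of Gpd1 0.083 and 0.44, and those of Rgs16 0.37 and 0.99. In the other direction Pfkfb3, which makes an activator of glycolysis, read 183 and 109, with log2 ratios of -0.75 and -0.63 in its probe sets. Fasn (275 and 284) and Acly (5919 and 5439), named after their values were seen as classical lipogenic targets, were nearly equal. By median, the known targets as a list thus lay near 0. At a limit of 1.5-fold, 4 of the 17 were higher and 1 was lower, beside 6.90% and 6.20% of all measured genes. A further 4 targets, Acacb, Scd1, Gckr and Fgf21, were under the floor on both arrays. Whether the known targets share control with Txnip and Arrdc4 in these islets was not tested.

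Genes with a pair of E-box-like motifs in their upstream window were read in the same way. Of 15 measured genes with such a pair, 1 was at least 2-fold higher and 0 were lower by as much. The median log2 ratio was -0.15. The 1 gene was Txnip, which was chosen with its ratio known. Beside shares of 1.82% higher and 1.44% lower among all measured genes, nothing is read from these counts. Pklr (34.8 and 28.1), Syce1 (24.4 and 40.8) and Zfp607b (29.1 and 25.8) were close to the floor. The signal of 9230116N13Rik was 28.8 in control and 8.3, under the floor, in knockout-labelled islets. Signals this low limit what can be said about a shared direction.

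Other factors that bind E-boxes or belong to the MAX and MLX network comprised 13 measured genes, with 0 past 2-fold. Of these 13, 10 were above 0, beside 49.9% of all measured genes, and nothing is read from this count. The median log2 ratio was 0.18, and ran from 0.052 to 0.21 over the alternatives of floor, scaling and probe set. Mxd3, which encodes a MAX-binding repressor, was the gene past 1.5-fold, at 38.1 and 72.6. The other arrestins and the NEDD4-type ubiquitin ligases recruited by alpha-arrestins had 8 measured genes. By brightest probe set, 0 of them were past 2-fold or 1.5-fold, and the median was 0.025. The ligase genes Wwp2 (-0.38), Nedd4l (-0.33) and Nedd4 (-0.26) had the largest ratios by size. Another Wwp2 probe set gave 0.12, and other probe sets of Itch and Wwp1 ran from -0.12 to 0.65 and from -0.33 to 0.52. Those of Nedd4 ran from -0.25 to -0.14, and another of Nedd4l gave -0.37. Arrdc1 read 128 and 131, with another probe set at a log2 ratio of 0.48. Arrdc2 and Arrdc5, the remaining alpha-arrestin genes, were under the floor on both arrays.

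Of 21 measured genes of the thioredoxin and glutaredoxin system, 0 passed 2-fold, and the list's median log2 ratio was 0.050. Nxn, which encodes the thioredoxin relative nucleoredoxin, was at 0.73 with another probe set at 0.047. Txnrd2, the mitochondrial thioredoxin reductase gene, was at 0.62 with others from -0.12 to 0.56. Glrx3 (20.2 and 32.9) was at least 1.52-fold higher, with its control signal under the floor. Txnrd1, the cytosolic reductase gene, read 2072 and 1865.

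Of 9 genes for proteins that bind TXNIP or act with it, 6 were below 0 and 0 passed 2-fold. Beside 49.9% of all measured genes above 0, nothing is read from this count. The median log2 ratio, -0.36, was that of Casp1 (27.8 and 15.1). This was a bound, since the knockout-labelled signal was under the floor. Pycard, the inflammasome adaptor gene, read 69.1 and 38.1 and was at -0.86. Slc2a4, the insulin-responsive glucose transporter gene, read 45.6 and 26.9, the latter close to the floor. Ddit4, a stress-induced inhibitor of mTORC1, read 479 and 285.5. Nlrp3 and Map3k5 were at -0.35 and -0.48. Glucocorticoid or FOXO responsive genes are a class to which Txnip also belongs. By brightest probe set they had a median of -0.19 over 12 genes and 0 past 2-fold. Sgk1, a kinase gene of this class, read 274 and 432, and Fkbp5 read 199 and 133, with another probe set at -0.12. Other probe sets of Sesn1 ran from 0.22 to 1.07, past 2-fold, and those of Tsc22d3 from 0.31 to 0.73. Those of Klf9 ran from -0.092 to 0.17, and another of Sesn3 gave -0.46.

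The last list holds genes of glucose entry and pyruvate kinase and also G6pc2, a glucose-6-phosphatase gene. Of its 8 genes, 6 were below 0, with G6pc2 (-0.28) among them, where 49.9% of all measured genes were above 0. The median log2 ratio was -0.25. Slc2a1, the glucose transporter gene whose protein TXNIP helps to internalise, read 2164 and 1267.5, with log2 ratios of -0.77, -0.95 and -1.02 in its 3 probe sets. Hk2 (56.1 and 28) was the gene at least 2-fold lower, at a log2 ratio of -1.003 and with its knockout-labelled signal close to the floor. Slc2a3 (46.6 and 23.4) lay just inside that limit and next to the floor. Hk3, at least 2.43-fold higher, had a control signal of 19.4, under the floor, and another probe set at -0.22. When a pseudocount of 16 replaced the floor, 0 genes of this list passed 2-fold in either direction, as with the floor at percentile 70, and under quantile scaling 0 were higher and 2 lower. Slc2a2, the main beta cell glucose transporter gene of the mouse, read 276 and 396, and Pkm, the other pyruvate kinase gene, read 3415 and 3119.

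**Figure D4:**
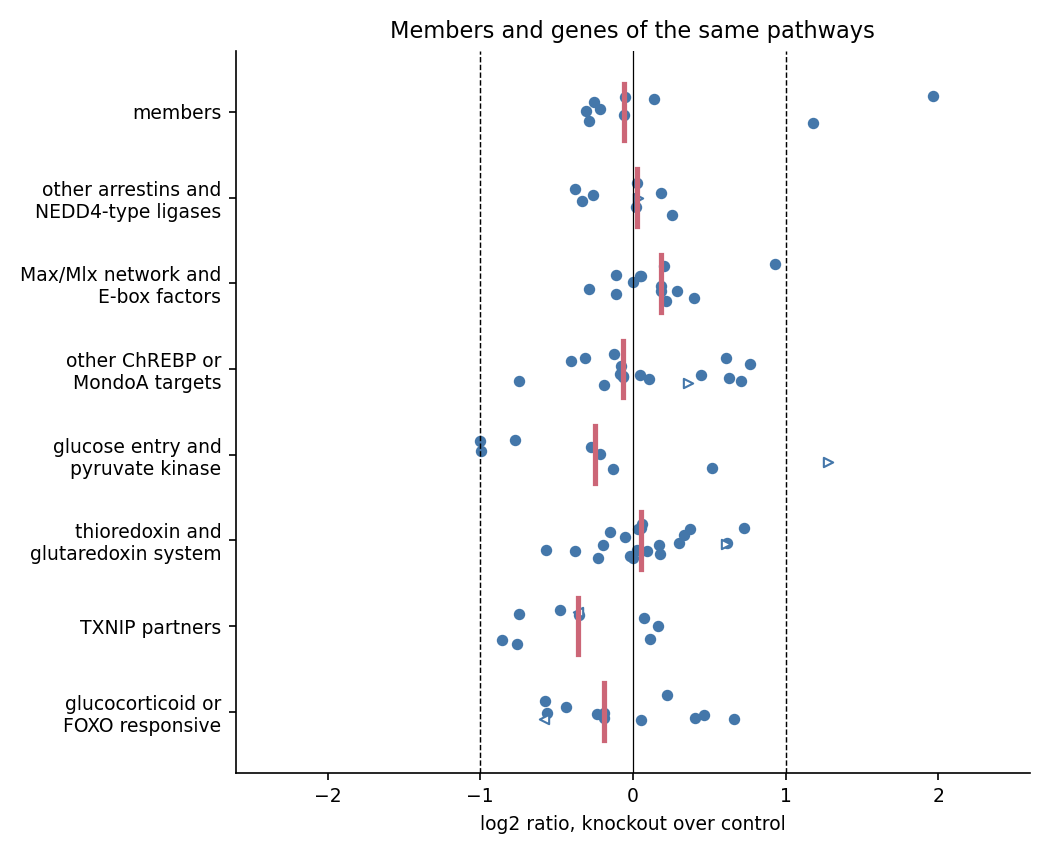
Log2 ratios of the members and of genes in 7 related lists, with a filled circle for a gene above the floor on both arrays, an open triangle for a ratio that is a bound, a bar at each list's median and dashed lines at 2-fold. Medians of the lists run from -0.36 to 0.18, and Txnip at 1.96 lies beyond all genes shown.

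Islets hold several cell types, and fewer cells of a type cannot be told apart from less RNA per cell in such samples. The 11 measured beta cell markers had 0 genes past 2-fold and a median of -0.11 on the log2 scale, with summed signals of 38269 (control) and 34662 (knockout-labelled). For alpha cell markers the median was -0.12 over 7 genes (25845 and 21193), with 1 at least 2-fold higher and 0 lower by as much. This was the amino acid transporter gene Slc38a5, at 153 and 406. Acinar cell markers differed most, with 6 of 11 at least 2-fold lower and 0 past that limit on the higher side. Their median was -1.005, with summed signals of 43483 and 22588. Pla2g1b and Bhlha15 were at 0.22 and 0.055, with other probe sets at -1.16 and -0.52. Cela3b was at -0.67, with others from -1.53 to -1.10. The acinar markers Ptf1a and Rbpjl were under the floor on both arrays. Macrophage markers went the other way from acinar ones, with 4 of 12 at least 2-fold higher and 0 past that limit on the lower side. Their median was 0.57, with summed signals of 1222.5 and 1914.8. Mrc1 (24.5 and 131) and C1qb (49.1 and 114) were among these 4. The control signal of Mrc1 was next to the floor, and another C1qb probe set gave a log2 ratio of 0.30. Fcer1g (20.2 and 51.8), also among the 4, had its control signal under the floor. Other probe sets of Csf1r ran from -0.15 to 1.16. Over all measured genes, 1.82% were at least 2-fold higher and 1.44% lower by as much. A further 2 macrophage markers, Itgam and Aif1, were under the floor on both arrays. The part of these shifts in the Txnip and Arrdc4 ratios was not tested.

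**Figure D5:**
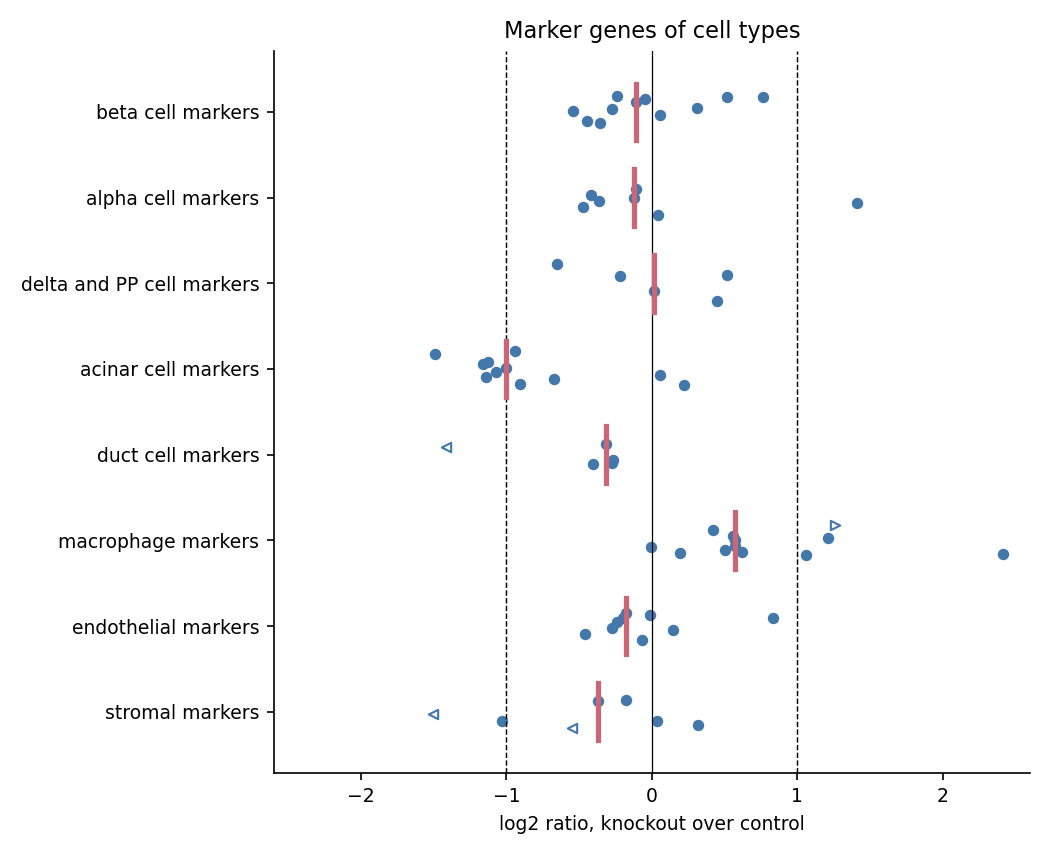
Log2 ratios of marker genes of 8 cell types, drawn like the plot of pathway lists. Acinar markers lie to the left with a median of -1.005 and macrophage markers to the right with a median of 0.57, while beta and alpha cell medians are -0.11 and -0.12.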

How the data were processed

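Expression was measured in islets on 1 Affymetrix array per group. The authors deposited linear probe set intensities, made with MAS5 per the submitters' processing notes. The sources used here do not give its version, scaling target or detection calls. The table held 45037 probe sets. Platform annotation paired 34945 with 1 gene, 932 with several and left 9160 unnamed, and 34741 matched RefSeq by Entrez identifier. Signals below each array's 50th percentile were raised to it, genes below it on both arrays (per brightest probe set) were left out, and a ratio with 1 side at the floor is a bound. This left 11802 genes, 1352 of them with a bound. The only guide to measurement error was the SD of log2 ratios among probe sets of 1 gene (median 0.21 over 4719 genes), which leaves out all variation between animals.

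The ratio step, without the floor, returned known fold changes multiplied into signals with shuffled ratios, which checks the arithmetic alone. The floor, the bounds and the choice of probe set were not part of that check. No test between groups was possible. Members, gene lists and the rule for named genes were chosen with earlier results of these data known. That rule takes all members, list genes past 1.5-fold above the floor on both arrays (otherwise the 3 largest), the 5 genes nearest to Txnip, and control genes; genes and values given beyond it were picked after the values were seen. Motifs were searched in RefSeq promoter sequences. Alternatives were other floors, no floor with a pseudocount of 16, median, quantile and loess (span 0.3) scaling, means over probe sets, and limits of 1.5-fold and 3-fold. Python 3.11.15, pandas 2.3.3 and statsmodels 0.14.6 were used.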

Additional observations from a re-analysis of the deposited data

How the results depend on the processing

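Txnip and Arrdc4 were the members at least 2-fold higher under every floor, scaling and probe set alternative and at a limit of 1.5-fold, and 0 members were lower. At a limit of 3-fold the number higher was 1, Txnip. Over the 7 alternatives of floor, scaling and probe set, the log2 ratio of Txnip ran from 1.87 to 2.00 and that of Arrdc4 from 1.06 to 1.19. Counts over all genes moved more than 1.5 times: from 215 higher and 170 lower to 695 and 638 for a floor at percentile 30, 96 and 64 for percentile 70, 814 and 732 at 1.5-fold, and 51 and 17 at 3-fold. Among genes of glucose entry, the 1 gene higher became 0 with the highest floor, without a floor, with quantile scaling and with means over probe sets, and the 1 lower became 0 with the highest floor and without a floor, and 2 with median and quantile scaling. With the lowest floor, 1 ChREBP or MondoA target was higher. With that floor, without a floor, with quantile scaling and with means over probe sets, 1 glucocorticoid or FOXO responsive gene was lower. List medians near 0 changed sign for ChREBP or MondoA targets (-0.071 to 0.049), other arrestins and ligases (-0.098 to 0.043) and glucocorticoid or FOXO responsive genes (-0.26 to 0.23), and that of TXNIP partners ran from -0.48 to -0.010. Pklr had no ratio under the highest floor. In weak probe sets, signal over background limits what can be seen. No paired analysis was possible because the groups share replicate number 1 alone, and no replicate could be left out.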
